A study of Mus musculus with 59 samples.

Results

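The data described here are the transcriptomes of 8 single epiblasts of mouse embryos at E6.25, 4 that lacked Ehmt2 and 4 controls. They were chosen by genotype and assay, and are 8 of the 59 samples of the series and 8 of its 14 epiblasts with RNA counts. The knockouts carry the genotype G9a-/- and the controls are labelled G9a+/+, both on a mixed background. The study's methods describe the controls as +/+ or +/-, from heterozygous crosses of a conditional Ehmt2 allele on a background that also carries the GGOF reporter, a GFP under a Pou5f1 enhancer. Replicates 1 to 3 of each genotype form 1 comparison set, called set A here, and replicate 4 forms the other, set B. The fits carry a term for the set, so that knockouts are compared with controls within it. Each epiblast is 1 embryo. The embryos came from several litters and the sources do not say which replicates shared a litter.

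Ehmt2 encodes G9a, which together with its partner GLP, the product of Ehmt1, places dimethylation on lysine 9 of histone H3 (H3K9me2), a mark found on silent chromatin. In the mouse, germline genes are switched on in primordial germ cells and gonads and are kept silent in somatic cells by H3K9 methylation, DNA methylation and a Polycomb complex, PRC1.6, that reads E-box and E2F-type motifs. The epiblast at this age is a primed pluripotent epithelium that lies against the extraembryonic ectoderm and inside the visceral endoderm, shortly before gastrulation.

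Counting 1 transcript per gene, the epiblasts held between 13171102 and 28438569 counts, most in the replicate 4 pair. Levels are given as CPM, counts scaled to library size after TMM normalisation. The epiblast markers Pou5f1, Utf1 and Tdgf1 were abundant in each of the 8, with Pou5f1 between 197 and 666 CPM. The list of visceral endoderm markers (0 of 14 tested members raised or lowered, median log2 fold change -0.33) was at 23.3 to 25.3 summed CPM in the replicate 4 pair and at 64.9 to 231 in the other 6 epiblasts. Maternal blood and decidua markers (0 of 8, median 0.57) ran from 23.8 to 182 summed CPM, lowest in the replicate 4 pair as well. The 4 Y-linked genes Ddx3y, Eif2s3y, Kdm5d and Uty, none of which was tested, were at 22.1 to 73.1 CPM in control 2, control 4 and knockout 4 and at most 0.37 CPM in the other 5, so the sexes are not balanced between genotypes. Epiblasts of 1 genotype differed far more where replicate 4 was compared with another (chi-square over its degrees of freedom 163 to 216) than within set A (17.8 to 34).

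Ehmt2 (chromosome 17, 34898469-34914052, GRCm38) had 25.4, 27.7, 38.9 and 77.2 CPM in controls 1 to 4 in order, and knockouts 1 to 4 had 11.7, 11.2, 7.98 and 21.3 CPM. Each knockout was below every control, and the knockouts kept 126 to 586 counts of the transcript. Which exons the deletion removes is not given in the sources used here, so the remaining counts were not assigned to a part of the gene. The log2 fold change was -1.65 (SE 0.22, adjusted p = 0.0036), and a two-sided exact permutation test gave p = 0.0286, the smallest that 4 against 4 allow. The adjusted p was 0.165 without the set term and 0.052 in the 5 epiblasts without Y-linked counts. Within 5 Mb on each side of Ehmt2, 161 genes were tested, 1 of them was raised, Tap1, and the median change was -0.12. Of the wider machinery of H3K9 methylation, 0 of 17 tested genes were raised or lowered beyond the fold threshold (median -0.06), and Ehmt1 stood at -0.06 (SE 0.11, adjusted p = 0.87). Atf7ip, a cofactor of the H3K9 methyltransferase SETDB1, was the member past the adjusted p, lower by a log2 change of -0.84 (SE 0.16, adjusted p = 0.028) with every knockout below every control, and lost its call without control 1, 2 or 3 or knockout 3 (0.056 to 0.098).

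Of 13753 genes tested, 112 were raised in knockouts, which is 0.814% of those tested, and 11 were lowered, 0.08%, where a gene is called raised or lowered if its Benjamini-Hochberg adjusted p from the quasi-likelihood test of edgeR is under 0.05 and its change is beyond 1.4 on the log2 scale. At any fold change, 131 genes (0.953%) were higher and 52 (0.378%) were lower, so the excess of raised genes lay in the large changes. At an unadjusted p under 0.05 the counts were 1029 higher and 959 lower, nearly even. The share to set beside each count of raised list members below is the 0.814% over all tested genes. Of the 112 raised genes, 105 are protein coding and 4 are lincRNAs, and all 11 lowered genes are protein coding. In 89 of the 112 every knockout lay above every control, a pattern held by 3.24% of all genes tested, and in 11 of the 11 lowered genes every knockout lay below every control, against 2.96%. The genes were called from these same values, so their separation follows largely from the selection. Throughout, a named gene is said to lose its call where its adjusted p was 0.05 or more, and the fold threshold was not applied again. The number of raised genes depended on which epiblasts were used. It was 59, 63 and 49 without control 1, 2 or 3, 71 without knockout 2, and 185 and 184 without control 4 or knockout 4. Leaving out either epiblast of set B leaves the genotypes compared within set A only. Here and below, these fits are therefore the same check and not separate ones. The number of lowered genes was 3, 3 and 2 without control 1, 2 or 3 and 6, 6 and 5 without knockout 1, 2 or 3. Without the term for the set, 28 genes were raised and 0 were lowered, with 0 lower at any fold change. With DESeq2 the counts were 225 and 62. In the 5 epiblasts without Y-linked counts, a comparison chosen after seeing the data, 70 genes were raised, 50 of them among the 112, and 4 were lowered, 0 of them among the 11.

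**Figure D1:**
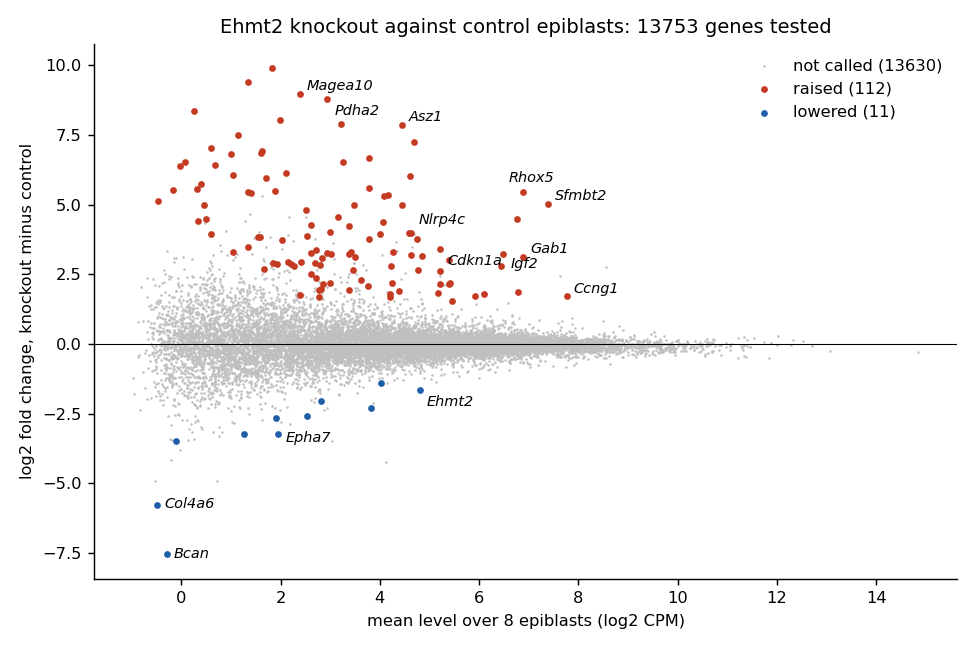
Log2 fold change of each tested gene, knockout against control, against its mean log2 CPM over the 8 epiblasts, with raised genes, lowered genes and all others in different colours. The 112 raised genes outnumber the 11 lowered ones and lie mostly at low and middle levels.

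The raised genes were scarce transcripts in control epiblasts and reached ordinary levels in knockouts. They were chosen for a large rise, and those near 0 in controls were tested only through their knockout counts. Their low level in controls thus follows largely from the call and the filter. Per kilobase of transcript, their median level was 0.431 CPM per kb in controls, at the 7.74th percentile of all tested genes, and 6.14 CPM per kb in knockouts, at the 49.7th percentile. All tested genes had a median of 6.03 in controls and 6.23 in knockouts. In 19 of the 112 no control held more than 3 counts, in 3 of these no control held any, and 20 of the 112 had at least 50 counts in every control. The lowered genes went from a median of 1.89 to 0.335 CPM per kb. With the tested genes in 5 equal groups by mean level, from low to high, 0.981, 1.49, 0.945, 0.364 and 0.291% of the genes were raised. The lowered genes numbered 4, 4 and 3 in the 3 lower groups and 0 in the 2 upper ones.

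The families that stood out by their counts were X-linked and are known from the germline, the Rhox genes also from the placenta. The sequences before the starts of 5 raised genes are shown as single examples. They are 1 CpG-rich promoter of a germline gene, a pair of near-identical copies, 1 CpG-poor promoter of a placental imprinted gene and 1 with an E-box. They are not typical of their groups. The ratio of observed to expected CpG was 0.784 for Gab1 and 0.748 for Sfmbt2, also placental imprinted genes, against 0.238 for Slc38a4. Of the 2 raised piRNA genes, Gtsf1 had 0.531 against 0.783 for Asz1. All are the 150 bases before the RefSeq start, 5' to 3' on the gene's strand, from GRCm38.p6, with CpG dinucleotides in capitals in the first 4 and the E-box CACGTG in capitals in the last. In the order printed they lie at chr6:18109062-18109211, chrX:154995851-154996000, chrX:155033293-155033442, chr15:97055957-97056106 and chr9:58741560-58741709, each on the minus strand.
Asz1: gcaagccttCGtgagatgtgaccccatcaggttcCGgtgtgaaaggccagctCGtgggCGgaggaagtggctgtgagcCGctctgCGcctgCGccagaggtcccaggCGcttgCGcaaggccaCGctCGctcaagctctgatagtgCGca
Magea8: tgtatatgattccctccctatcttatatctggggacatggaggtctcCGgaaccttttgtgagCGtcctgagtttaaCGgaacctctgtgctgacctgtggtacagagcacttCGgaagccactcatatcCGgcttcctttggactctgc
Magea2: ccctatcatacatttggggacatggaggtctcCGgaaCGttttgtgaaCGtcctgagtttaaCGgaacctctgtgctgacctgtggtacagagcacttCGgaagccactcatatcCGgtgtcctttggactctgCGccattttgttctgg
Slc38a4: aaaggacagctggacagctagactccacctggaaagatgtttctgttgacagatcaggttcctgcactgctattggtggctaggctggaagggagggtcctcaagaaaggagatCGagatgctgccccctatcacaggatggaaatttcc
Rec114: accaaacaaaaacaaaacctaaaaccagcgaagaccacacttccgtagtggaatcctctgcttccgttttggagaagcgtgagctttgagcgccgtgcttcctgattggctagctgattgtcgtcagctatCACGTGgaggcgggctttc
The Magea8 and Magea2 stretches were identical at 128 of 135 aligned bases (94.8%) when shifted by 15 bases, and the transcripts of this family are similar enough that reads could be split between copies, which leaves the value of any 1 copy uncertain.

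On the X chromosome 25 of 523 tested genes were raised (4.78%), and 2 were lowered. The next highest share was 1.55% on chromosome 15, with 8 of 515. X-linked genes made up 22.3% of the raised genes (exact Clopper-Pearson 95% interval 15 to 31.2%, counting error only), and 16.4% with DESeq2. The MAGE-A proteins are ligase cofactors normally made in testis. All 5 Magea genes that could be tested were raised, with a median log2 fold change of 7.87 (7.02 with Magea2, which no control held, at its bound). A gene near 0 counts in controls entered the test only through its knockout counts. This share and median thus follow largely from the filter and are no separate support. Magea8 had 0.182, 0, 0.132 and 0 CPM in controls 1 to 4 in order, and knockouts 1 to 4 had 22.9, 23.5, 20.3 and 6.44 CPM. The groups did not overlap, and knockout 4 was the lowest knockout, with a log2 fold change of 7.87 (SE 0.59, adjusted p = 4.2e-05). Magea10 was at 7.60 to 16 CPM in knockouts against 1 count over the 4 controls, a ratio of 743 (95% counting interval 133 to 29400; adjusted p = 0.00015). Magea2 was at 2.07 to 8.29 CPM in knockouts against 0 counts in controls, at least 109-fold higher with 3 counts over the control group as the floor. Magea5 and Magea4 were raised as well, Magea4 with 1 count in controls. Magea3 and Magea6, too low to be tested, held 0 to 4.17 CPM in knockouts and at most 0.106 CPM in controls. Both tested Mageb genes, Mageb16 and Mageb4, were raised (median 5.35). The limit from the filter also holds for Mageb4, with 3 counts over the controls. Mageb16 had 0.364, 1.59, 0.79 and 0.0425 CPM in controls and 53.6, 13.1, 17.4 and 2.22 CPM in knockouts, again without overlap (adjusted p = 0.0019, and 0.113 without the set term), and the count of the family was 0 to 2 over the alternatives. Magea4 lost its call without control 1, 2 or 3 (adjusted p = 0.059 to 0.061), and Mageb4 without control 1, 2 or 3 or knockout 1 or 2 (0.053 to 0.098).

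The Rhox genes are homeobox genes of the reproductive tract and placenta that lie in 1 cluster. Of 23 members with a count, leaving out pseudogenes, 3 were tested and 2 raised. Rhox5 had 9.17, 12.7, 3.88 and 0.17 CPM in controls 1 to 4 in order, and knockouts 1 to 4 had 499.6, 151, 173 and 87.8 CPM. Every knockout was above every control and knockout 1 was far the highest, with a log2 fold change of 5.43 (SE 0.59, adjusted p = 0.00088), which lost its call without the set term (adjusted p = 0.059). Rhox5 and Mageb16 were both highest in knockout 1 and lowest in knockout 4 among the knockouts. The part of extraembryonic tissue in their values was not tested. Rhox7a was at 0.823 to 3.26 CPM in knockouts and had 0 counts in controls, at least 55.5-fold higher. Rhox8, at 0.383 to 0.911 CPM in controls and 0.506 to 1.29 in knockouts, had a log2 fold change of 0.32 (SE 0.66). The Xlr genes are relatives of the synaptonemal complex protein SYCP3. Of 9 tested, 4 were raised (Xlr5a, Xlr5b, Xlr5c and Xlr4c), 8 had a positive change and 7 had every knockout above every control, with a median of 3.18. Over all tested genes 0.814% were raised and 3.24% had every knockout above every control. Xlr5a had 0.243, 0.212, 0 and 0 CPM in controls against 5.00, 4.29, 5.32 and 4.55 CPM in knockouts, without overlap and with even levels over the knockouts (log2 fold change 5.46, SE 0.90, adjusted p = 0.014). Rhox7a and Xlr5c lost their calls without control 1, 2 or 3 or knockout 2 (adjusted p = 0.051 to 0.065), and Xlr5b and Xlr4c without each of the 8 in turn (0.051 to 0.16). The Xlr count was 0 to 6 and the Rhox count 0 to 3 over the alternatives. Copies of these families also share sequence, with the same limit on single members. Rhox7a, Xlr5a, Xlr5c and Xlr4c, near 0 in controls, were tested only through their knockout counts.

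Raised X-linked genes lay close together. Among all raised genes, 22 were within 500 kb of another, in 9 runs, of which 6 runs with 16 genes were on the X. How many tested genes at large lie as close was not measured. Copies of a family within a run can share reads and are not separate observations. The pseudogene Rhox2-ps with Rhox5 and Rhox7a were all the tested genes of X:37682921-37841275, and Magea8, Magea2 and Magea5 all those of X:154985775-155093666. Of these, genes near 0 in controls were tested only through their knockout counts, so neighbours low in both genotypes are not seen. Magea4 and Magea10 (X:72222017-72386858) enclosed 1 other tested gene, Gabre, that was not raised. The run of Xlr5a, Xlr5b, Xlr4c and Xlr5c (X:73107635-73292976) held 7 tested genes in all. The other X runs were Gm14569 with Akap17b and Morc4 with Nup62cl, and the 3 autosomal runs were Zfp365 with Arid5b, Platr16 with Gm13230, and Gm17067 with Gm2381. Outside the families, Nxf3, a relative of the mRNA export factors, rose from 0.0607, 0.689, 0.395 and 0 CPM in controls to 27.2, 39.0, 21.2 and 21.4 CPM in knockouts, without overlap (log2 fold change 6.67, SE 0.64, adjusted p = 0.00038). Gm5128, with 0 counts in controls, was at 2.37 to 16.3 CPM in knockouts, at least 150-fold higher. The genes of runs without a family, and Acpp, 3830417A13Rik, D1Pas1, Rec114, Syce2, Ddx4, Piwil2, Rtl1, H19, Peg10, Mdm2, Ei24, Eda2r, Plk2, Lef1, Ccdc28b, Cdx2, Plet1, Nanog, Jade1, Sall3, Mixl1 and T in the text below, were picked after their values were seen, as were Magea3, Magea6 and Rhox8 above.

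**Figure D2:**
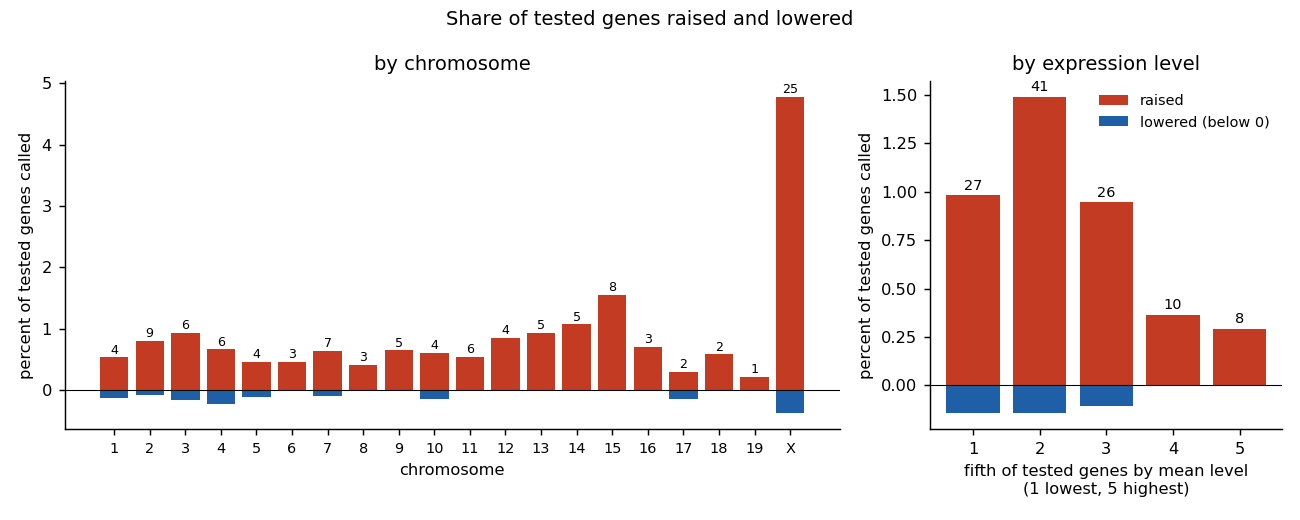
Left, percent of the tested genes of each chromosome that were raised (bars above 0, with the number of genes) or lowered (bars below 0). Right, percent of the tested genes raised or lowered in each of 5 equal groups by mean level. The X chromosome stands at 4.78% against at most 1.55% elsewhere, and the second lowest level group holds the highest share of raised genes, 1.49%.

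On autosomes a minority of germline genes was raised. Of the piRNA pathway, which silences transposons in germ cells, 2 of 17 tested genes were raised, 13 had a positive change and the median was 0.77. Asz1, a mitochondrial scaffold protein of that pathway whose CpG-rich promoter is printed above, had 0.243, 0.371, 0.132 and 0 CPM in controls 1 to 4 in order, and knockouts 1 to 4 had 58.2, 46.3, 50.4 and 17 CPM. The groups were far apart, with a log2 fold change of 7.86 (SE 0.40, adjusted p = 3.2e-06, the smallest of all genes). Gtsf1, a cofactor of PIWI proteins, had 0.243, 0.106, 0.197 and 1.96 CPM in controls and 13, 8.58, 13 and 7.71 CPM in knockouts (log2 fold change 4.79, SE 0.75, adjusted p = 0.011), and lost its call without control 1 (adjusted p = 0.059) or control 3 (0.064). Ddx4, the vasa helicase, and Piwil2 also had every knockout above every control, at log2 fold changes of 1.42 and 2.05, but did not pass (adjusted p = 0.085 and 0.075). Of 20 meiosis genes, 1 was raised and 15 had a positive change (median 0.31). Sycp2, of the axial element of the synaptonemal complex, had 0.607, 1.06, 1.05 and 1.74 CPM in controls and 6.39, 8.29, 9.69 and 7.35 CPM in knockouts (log2 fold change 2.87, SE 0.45, adjusted p = 0.011), and 0.054 without control 3. Syce2, of the central element, moved the other way, from 124 to 147 CPM in controls to 80.4 to 98.6 CPM in knockouts (log2 fold change -0.64, SE 0.12, adjusted p = 0.021). Rec114, which helps form meiotic double-strand breaks and is on no list, rose from 1.53 to 4.80 CPM in controls to 9.17 to 15.9 CPM in knockouts (log2 fold change 2.19, SE 0.35, adjusted p = 0.011), and 0.054 without control 3. Syce2 lost its call without control 1 or 3 or knockout 2 or 3 (adjusted p = 0.061 to 0.086).

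Of 9 tested genes of gonadal germ cells and oocytes, 2 were raised (median 2.64). Nlrp4c, an oocyte gene of the NLRP family, had 4.73, 1.43, 5.59 and 1.02 CPM in controls and 45.3, 52.7, 51.2 and 35.0 CPM in knockouts, with all 4 knockouts alike and none near a control (log2 fold change 3.99, SE 0.41, adjusted p = 0.00063). It was also the 1 raised gene of the 3 tested NLRP genes (median 2.64). Sohlh2, a transcription factor of early germ cells, was raised at 12.2 to 31.0 CPM against 0.371 to 5.52 CPM, a call lost in 10 of the 17 alternatives, among them those without control 2, 3 or 4 or each knockout in turn (adjusted p = 0.055 to 0.12). Of 11 genes of primordial germ cell specification, 2 were raised (median 0.33). Dppa4, a chromatin protein of pluripotent and germ cells, had 7.65, 3.98, 4.80 and 3.87 CPM in controls and 34.7, 20.4, 17.9 and 14.6 CPM in knockouts (log2 fold change 2.09, SE 0.32, adjusted p = 0.0094), and its adjusted p was 0.054 without control 3. Tfap2c, the other, is described with the extraembryonic ectoderm. Genes of the 2-cell stage showed no call (0 of 4 tested, median 0.16).

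Several autosomal, testis-specific paralogs of housekeeping genes, many of them intronless copies, were raised in knockouts of both sets. Of 14 tested, 5 were raised, and in these 5 every knockout was above every control. Over all tested genes 0.814% were raised and 3.24% had every knockout above every control. The 5 were called from these same values, so their separation follows largely from the selection. Pdha2, Timm8a2 and Tktl2, near 0 in controls, were tested only through their knockout counts. The median of the 14 was 0.67. Naa11, a paralog of the N-terminal acetyltransferase Naa10, had 1.15, 2.07, 0.987 and 1.70 CPM in controls 1 to 4 in order, and knockouts 1 to 4 had 37.2, 19.4, 28.2 and 41.4 CPM. Here knockout 4 was the highest, and the log2 fold change was 4.39 (SE 0.34, adjusted p = 5.4e-05). Rpl10l, a copy of the X-linked ribosomal protein gene Rpl10, had 2.79, 0.955, 3.49 and 4.51 CPM in controls and 51.1, 37.4, 42.2 and 48.1 CPM in knockouts, a narrow range in each group (log2 fold change 3.98, SE 0.36, adjusted p = 0.00023). It was the 1 raised gene of 81 tested ribosomal protein genes (median -0.11). Pdha2, the testis form of the pyruvate dehydrogenase subunit, was at 9.65 to 19.4 CPM in knockouts against 2 counts over the 4 controls, a ratio of 544 (95% counting interval 150 to 4490; adjusted p = 4.2e-05). Timm8a2 and Tktl2, copies of a mitochondrial import factor and a transketolase, were raised from at most 0.425 CPM to between 1.02 and 12.0 CPM, but Tktl2 lost its call without each epiblast of set A in turn (adjusted p = 0.063 to 0.13) and Timm8a2 without control 3 (0.054). D1Pas1, a testis paralog of the helicase gene Ddx3x, rose by a log2 change of 1.92 (SE 0.33, adjusted p = 0.019) without overlap, and lost its call without control 1, 2 or 3 or knockout 2 (0.064 to 0.083). Reads of intronless copies and their parents can be confused in 40 nt reads, and the share of such reads was not measured.

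**Figure D3:**
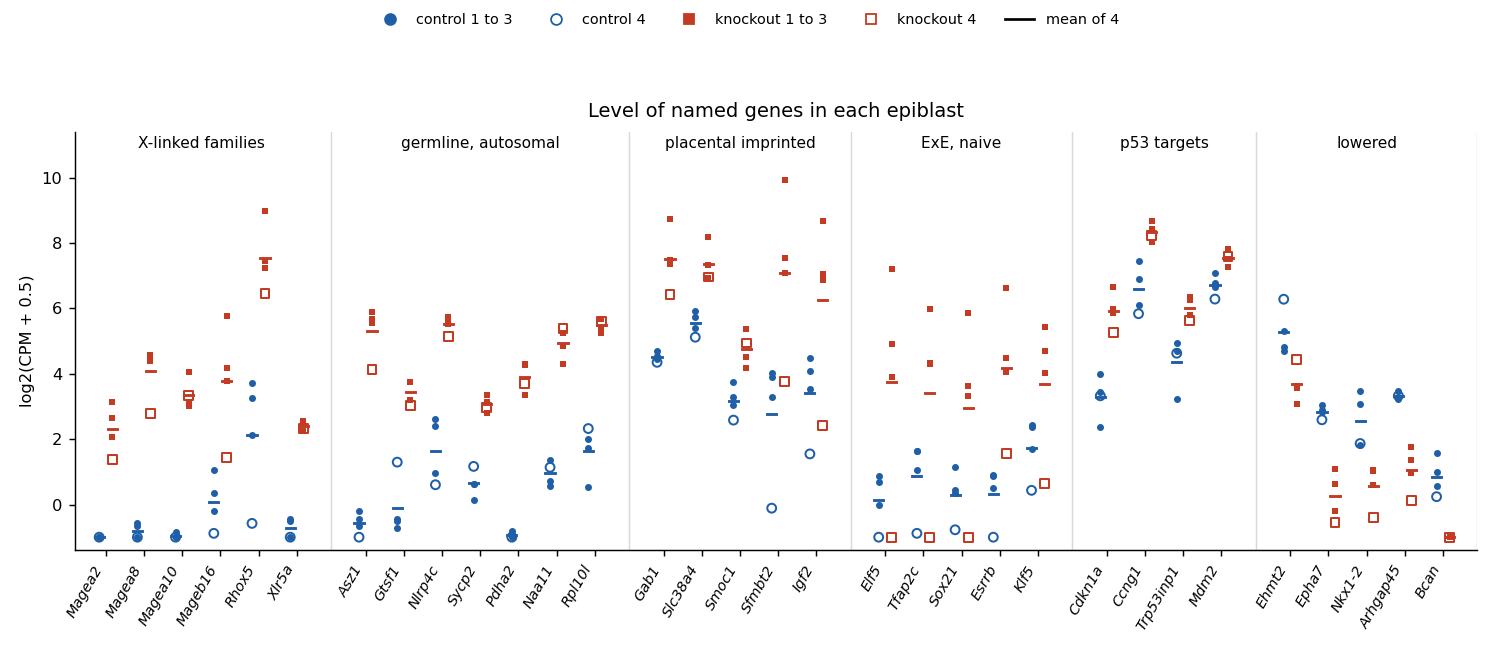
Level of chosen genes in each epiblast as log2(CPM + 0.5), controls and knockouts as separate points with replicate 4 as an open symbol and a bar at the mean of each genotype. The germline genes Asz1, Nlrp4c and Naa11 separate in both sets, whereas Elf5 and Tfap2c are high in knockouts 1 to 3 and at 0 CPM in knockout 4.

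A few genes with other roles changed as much as the germline genes. Cd3e, a T cell receptor subunit, rose from 0.0425 to 0.658 CPM in controls to 12.7 to 30.0 CPM in knockouts (log2 fold change 6.54, SE 0.64, adjusted p = 0.00044). It and Wdfy4 were the 2 raised of 12 tested lymphocyte genes, whose median was -0.03, and Wdfy4 lost its call without each of the 8 in turn (adjusted p = 0.057 to 0.15). Acpp, a prostatic acid phosphatase, had 0.128 to 0.848 CPM in controls and 15.6 to 38.1 CPM in knockouts (log2 fold change 5.59, SE 0.41, adjusted p = 4.2e-05). Abca16, an ABC transporter, was at 3.24 to 7.5 CPM in knockouts against 3 counts over the controls, a ratio of 133 (95% counting interval 45.3 to 649), and 1700018B24Rik had a ratio of 131 (44.4 to 638). Foxn4, a forkhead factor of retina and spinal cord, was the 1 raised of 5 tested neural and later lineage regulators (median -0.11), at 2.92 to 7.01 CPM against 0.243 to 0.477 CPM (log2 fold change 3.85, SE 0.57, adjusted p = 0.0079, and 0.0595 in the 5 epiblasts without Y-linked counts).

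Several genes whose imprinting in the placenta depends on histone marks were raised. These noncanonical imprinted genes, silenced on the maternal allele in extraembryonic tissue, had 4 of 6 tested members raised with a median of 1.78. Over all tested genes 0.814% were raised and the median was -0.01. Between 2 and 5 members of the list were raised over the alternatives. The list mean as log2(CPM + 0.5) was 3.53, 4.13, 3.84 and 3.13 in controls and 6.43, 5.55, 5.77 and 4.70 in knockouts, while that of the extraembryonic ectoderm markers described below was 1.94, 2.08, 2.12 and 1.20 and then 4.66, 3.57, 3.83 and 0.87. The part of such tissue in the values of Gab1, Sfmbt2, Slc38a4 and Smoc1 was not tested. Gab1, an adaptor of growth factor receptors, had 21.2, 25.6, 23 and 19.9 CPM in controls 1 to 4 in order, and knockouts 1 to 4 had 424, 179.5, 165 and 85.6 CPM. The controls were nearly equal and every knockout was above them, with a log2 fold change of 3.13 (SE 0.33, adjusted p = 0.00081). Gab1 was also the 1 raised gene of 16 in the FGF pathway (median -0.07). Slc38a4, an amino acid transporter with the CpG-poor promoter printed above, had 52.9, 59.4, 42.1 and 34.2 CPM in controls and 289, 159, 121 and 124 CPM in knockouts (log2 fold change 1.87, SE 0.24, adjusted p = 0.0023). Sfmbt2, a Polycomb-group gene, had 14.4, 15.6, 9.34 and 0.425 CPM in controls and 966, 135, 187 and 13.1 CPM in knockouts, so knockout 4 was above control 4 but within the range of the other controls (log2 fold change 5.01, SE 0.60, adjusted p = 0.0019, and 0.165 without the set term). Smoc1, a secreted calcium-binding protein, was raised by 1.68 (SE 0.33, adjusted p = 0.031) and lost its call without each control in turn, knockout 1 or knockout 4 (0.057 to 0.10). Jade1 lay at 0.62 (adjusted p = 0.095) with every knockout above every control, and Sall3 at -0.02.

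Of 27 tested canonical imprinted genes, 1 was raised beyond the fold threshold and 1 was lower at a smaller fold, with a median of -0.04. Igf2, a fetal growth factor, had 21.7, 11.0, 16.4 and 2.42 CPM in controls and 409.8, 115, 131 and 4.84 CPM in knockouts (log2 fold change 3.24, SE 0.54, adjusted p = 0.015), a call lost without control 1, 2 or 3 (adjusted p = 0.077, 0.066 and 0.087). H19, the noncoding RNA beside it, and Peg10 had the same shape over the epiblasts, with 1753 and 849.7 CPM in knockout 1 and 15.2 and 5.75 CPM in knockout 4, and did not pass (adjusted p = 0.067 and 0.091). Rtl1, expressed from the paternal allele, was lower, at 12.8 to 20.2 CPM in knockouts and in controls at 26.6 to 34.8 CPM (log2 fold change -0.97, SE 0.21, adjusted p = 0.049), and lost its call without each epiblast in turn other than knockout 3 (0.075 to 0.16). With set A alone 5 canonical genes were raised, the highest count over the alternatives, and the lowest was 0.

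Markers of the extraembryonic ectoderm had higher levels in knockouts 1 to 3 and not in knockout 4. Of 19 tested, 3 were raised (Elf5, Tfap2c and Sox21), 17 had a positive change and the median was 2.11. As mean log2(CPM + 0.5) over the list, controls 1 to 4 had 1.94, 2.08, 2.12 and 1.20 and knockouts 1 to 4 had 4.66, 3.57, 3.83 and 0.87. Knockout 4 was thus the lowest of the 8. Elf5, a factor that defines this tissue, had 0.486, 1.11, 1.32 and 0 CPM in controls and 148, 14.5, 29.8 and 0 CPM in knockouts (log2 fold change 6.02, SE 0.86, adjusted p = 0.0081), and Tfap2c had 1.58, 2.60, 2.63 and 0.0425 CPM against 63.3, 19.2, 19.6 and 0 CPM (3.77, SE 0.60, adjusted p = 0.011). Both rose in set A and were at or near 0 in both epiblasts of set B. Elf5 lost its call without control 1 or 3 (adjusted p = 0.059 and 0.058), Tfap2c without control 1, 2 or 3 (0.055 to 0.070) and Sox21 without each epiblast of set A in turn (0.056 to 0.22). Cdx2 and Plet1, also defining markers, had the same shape without passing. Cdx2 was at 15.8, 3.36, 2.85 and 0 CPM in knockouts and in controls at 0 to 1.06 CPM, and Plet1 at 87.7, 34.3, 29.6 and 0.946 CPM against 2.81 to 7.63 CPM (adjusted p = 0.11 and 0.19). Over the alternatives the count of raised members was 0 to 9, with 9 in set A alone. How much extraembryonic tissue each dissected epiblast held was not measured, and in bulk epiblasts more cells of a type cannot be told apart from more RNA per cell.

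Several genes raised elsewhere on the lists are also expressed in extraembryonic ectoderm or trophoblast. The part of such tissue in their values was not tested. Esrrb and Klf5 were the 2 raised of 9 tested naive pluripotency genes (median 0.83), which are factors of the inner cell mass. Esrrb had 0.911, 1.33, 1.38 and 0 CPM in controls and 98.4, 21.9, 16 and 2.44 CPM in knockouts (log2 fold change 5.34, SE 0.65, adjusted p = 0.0019, and 0.122 without the set term), and Klf5 had 4.86, 2.76, 4.67 and 0.85 CPM against 42.9, 15.7, 25.6 and 1.06 CPM (2.28, SE 0.49, adjusted p = 0.045). For Klf5 knockout 4 lay within the controls, and Klf5 lost its call without each epiblast of set A in turn (adjusted p = 0.073 to 0.16). Nanog, of the same list, was at 47.9 to 85.7 CPM in knockouts and 49.9 to 102 CPM in controls. Of 15 BMP pathway genes, 2 were raised (median 0.56). Bmp4, a ligand that extraembryonic ectoderm sends to the epiblast, had 3.46, 6.26, 3.95 and 2.89 CPM in controls and 111, 29.4, 29.3 and 9.53 CPM in knockouts (log2 fold change 3.18, SE 0.52, adjusted p = 0.013). Its target Id2 had 4.49, 8.70, 8.36 and 6.97 CPM against 115, 24.6, 24.1 and 23.8 CPM (2.64, SE 0.51, adjusted p = 0.029). In both genes all 4 knockouts were above every control, and both lost their calls without control 1, 2 or 3 (adjusted p = 0.055 to 0.10).

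Targets of p53 had a higher mean level in the knockouts of both sets, and a minority of them passed the test. Of 26 tested, 23 had a positive change, 12 had every knockout above every control, 6 passed the adjusted p and 4 of these passed the fold as well, with a median of 0.87 against -0.01 over all genes. Over all tested genes 3.24% had every knockout above every control, 0.953% were higher past the adjusted p and 0.814% were raised. The mean log2(CPM + 0.5) of the list was 4.11, 3.71, 4.30 and 3.74 in controls and 4.88, 5.31, 4.77 and 4.82 in knockouts, so the groups did not overlap and knockout 4 was like the other knockouts. Cdkn1a, the cyclin-dependent kinase inhibitor p21, had 10.4, 4.72, 15.5 and 9.52 CPM in controls 1 to 4 in order, and knockouts 1 to 4 had 62.2, 99.6, 57.0 and 38.2 CPM. The groups were well apart, and the log2 fold change was 2.63 (SE 0.34, adjusted p = 0.0031). Ccng1, cyclin G1, had 119, 68.7, 176 and 56.7 CPM in controls and 345, 409, 259.9 and 301 CPM in knockouts (log2 fold change 1.71, SE 0.27, adjusted p = 0.011, and 0.0914 without the set term). Mdm2, the ligase that degrades p53, was at 153 to 226 CPM against 77.5 to 135 CPM (0.85, SE 0.16, adjusted p = 0.028). Ei24 had the same fold change, Trp53inp1 rose by 1.54 (SE 0.32, adjusted p = 0.041) and Tap1, a peptide transporter, by 3.30 (SE 0.68, adjusted p = 0.039). Tap1 is also the raised gene within 5 Mb of Ehmt2, and the part of this position in its value was not tested. Eda2r and Plk2, both with every knockout above every control, missed the threshold at 2.67 and 3.67 (adjusted p = 0.052 and 0.080). Of the 6, Cdkn1a and Ccng1 stayed past the adjusted p whichever epiblast was left out. Over the alternatives the changes of Ccng1 and Trp53inp1 were as low as 1.19 and 1.24, below the fold threshold. Tap1 lost its call without each of set A in turn (adjusted p = 0.063 to 0.13), Trp53inp1 without control 1 or 3 or knockout 1, 2 or 3 (0.061 to 0.11), Mdm2 without control 1, 2 or 4 or knockout 2 or 4 (0.054 to 0.099) and Ei24 without each control in turn or knockout 2 or 4 (0.057 to 0.11). Between 1 and 8 members of the list were raised over the alternatives, and the list median stayed between 0.68 and 1.02.

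Cdkn1a was the 1 raised of 12 tested cell cycle inhibitors (median 0.59), and genes of DNA replication and mitosis had 0 of 35 past the adjusted p. Of 25 apoptosis regulators and caspases, 2 were raised (Tnfrsf1a and Casp14) and the median was 0.04. Tnfrsf1a, the receptor of TNF, was at 6.15 to 16.9 CPM in knockouts and in controls at 1.4 to 4.83 CPM (log2 fold change 1.93, SE 0.40, adjusted p = 0.039), a call lost without each of the 8 in turn (0.055 to 0.12). Casp14 is the caspase of cornifying epidermis and held 3 counts over the controls, and its call was lost without each control in turn or knockout 2 or 3 (adjusted p = 0.064 to 0.14). Among 21 genes of interferon and innate immunity, 3 were raised (Aim2, Tap1 and Nlrx1) and the median was 0.40. Tap1, which lies near Ehmt2, is the same gene as among the p53 targets. Aim2, a sensor of cytosolic DNA, had 11.2, 10.6, 4.28 and 2.00 CPM in controls and 55.6, 64.3, 76.9 and 68.6 CPM in knockouts, with even levels over the knockouts (log2 fold change 3.39, SE 0.41, adjusted p = 0.0019), and Nlrx1 lost its call without each epiblast of set A in turn (0.073 to 0.14). Of 16 basement membrane genes, 2 were raised, 1 was lowered and the median was 0.08. Nid1, nidogen, was raised in set A, where the knockouts had 65.6 to 121 CPM and the controls 10.5 to 17.8 CPM, and knockout 4 had 10.8 CPM against 0.468 CPM in control 4 (log2 fold change 3.00, SE 0.31, adjusted p = 0.00067, and 0.326 without the set term). Lama3, a laminin chain, rose by 2.65 (SE 0.51, adjusted p = 0.029) and lost its call without control 1 or 3 or knockout 1 or 2 (0.068 to 0.086).

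**Figure D4:**
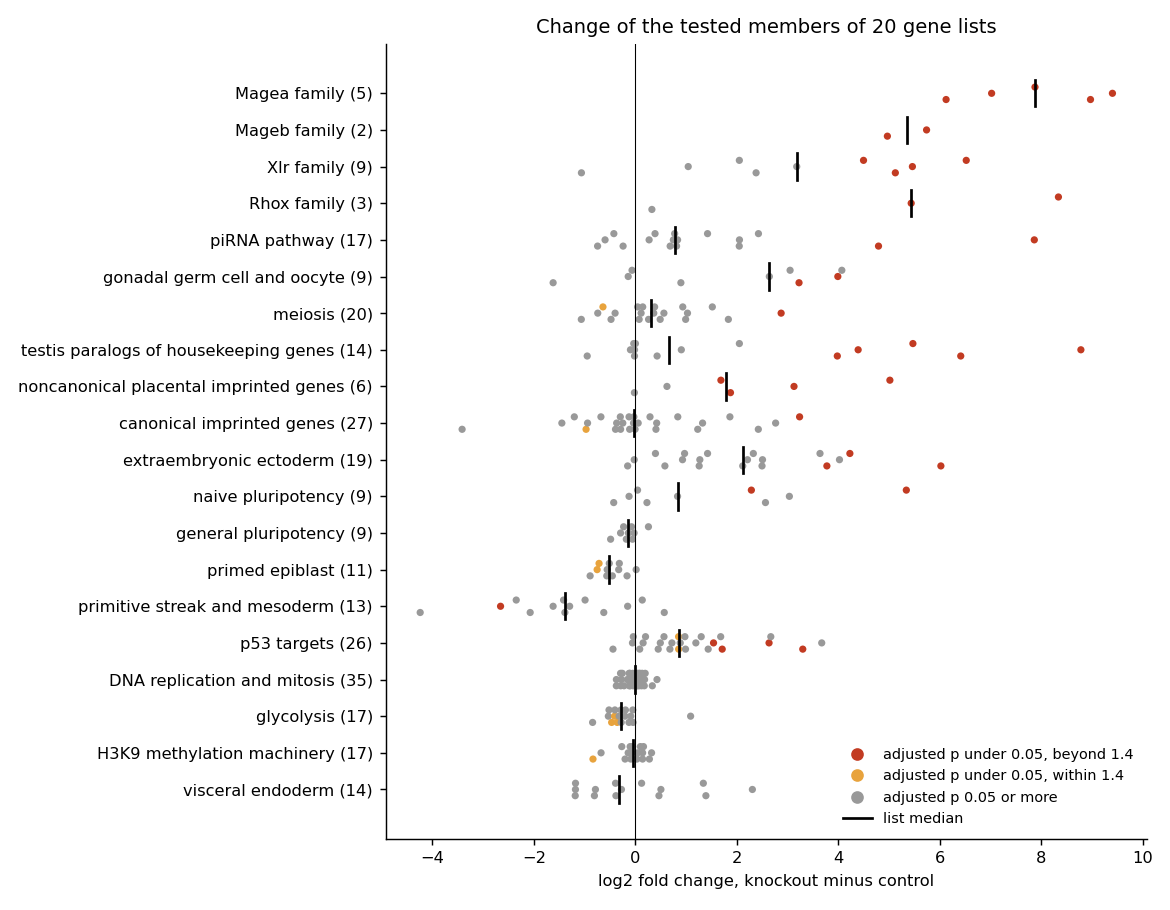
Log2 fold changes of the tested members of 20 gene lists, 1 point a gene, coloured by whether the adjusted p and the fold threshold were passed, with a bar at each list's median. The Magea family, tested through its knockout counts, has the highest list median, 7.87. The p53 targets lie mostly above 0 with a median of 0.87, and the glycolysis and primed epiblast genes lie mostly below 0.

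The 11 lowered genes did not form a family. Besides Ehmt2 they were Bcan, Col4a6, Prnd, Epha7, Ildr2, Nkx1-2, Arhgap45, C530008M17Rik, Cnksr2 and Ccdc28b, the last with the smallest change. Bcan, the proteoglycan brevican, had 0.68 to 2.49 CPM in controls and 0 counts in knockouts, at least 32.3-fold lower. Col4a6, a basement membrane collagen, had 0.724 to 1.82 CPM in controls and 1 count over the knockouts, 84.2-fold lower (95% counting interval 14.7 to 3360). Epha7, an Eph receptor, had 7.71, 6.63, 6.84 and 5.53 CPM in controls and 1.04, 1.64, 0.38 and 0.182 CPM in knockouts (log2 fold change -3.24, SE 0.61, adjusted p = 0.026). Arhgap45 had 8.86, 9.33, 10.7 and 9.52 CPM in controls, which were nearly equal, and 1.46, 2.86, 2.09 and 0.582 CPM in knockouts (-2.60, SE 0.46, adjusted p = 0.019). C530008M17Rik was as even in controls, at 21.6 to 23.5 CPM, and held 1.64 to 8.17 CPM in knockouts (-2.29, SE 0.38, adjusted p = 0.014). Nkx1-2, a homeobox gene of the caudal epiblast, was the 1 lowered of 13 primitive streak and mesoderm genes, at 3.04 to 10.6 CPM in controls and 0.255 to 1.57 CPM in knockouts (-2.66, SE 0.55, adjusted p = 0.041). The median of that list was -1.39 with 11 negative changes, and it rested on control 2, which held 119.6 CPM of Mixl1 and 38.0 CPM of T against at most 4.61 and 1.38 CPM in the other controls. Without control 2 the list median was -0.20, and in the 5 epiblasts without Y-linked counts, which leave control 2 out, it was 0.73. Each of the 10 genes other than Ehmt2 missed the adjusted p in 3 to 14 alternatives, C530008M17Rik in the fewest and Prnd in the most. Ccdc28b was also short of the fold threshold in set A alone, at -1.19. C530008M17Rik kept its call whichever epiblast was left out. Prnd, Col4a6 and Ildr2 lost theirs without each of the 8 in turn, Nkx1-2 without each but control 1, Epha7 without control 1, 2 or 3 or knockout 3, Arhgap45 without control 1, 2 or 3, Bcan without control 3 or knockout 1, 2 or 3, Cnksr2 without each of set A but knockout 1, and Ccdc28b without each but knockout 3 or 4, with adjusted p between 0.053 and 0.17.

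A pair of primed epiblast genes, Fgf5 and Sall2, was lower by a small fold. Of 11 tested, 10 had a negative change, 4 had every knockout below every control, 2 passed the adjusted p at any fold and 0 passed the fold threshold, with a median of -0.52. Over all tested genes 2.96% had every knockout below every control and 0.378% were lower past the adjusted p. The list mean as log2(CPM + 0.5) was 7.34, 7.29, 7.36 and 7.41 in controls and 6.45, 6.96, 6.93 and 7.10 in knockouts, without overlap. Sall2, a zinc finger factor, had 325, 277, 268 and 342 CPM in controls and 140.3, 220.4, 181 and 174 CPM in knockouts (log2 fold change -0.75, SE 0.14, adjusted p = 0.025). Fgf5, the classical marker of the primed state, had 389, 493, 409 and 678 CPM against 199, 242, 321 and 452 CPM, with knockout 4 inside the range of controls (-0.72, SE 0.14, adjusted p = 0.031). Sall2 lost its call without control 1, 2 or 3 or knockout 3 (adjusted p = 0.057 to 0.086) and Fgf5 without control 1, 2 or 3 or knockout 2 (0.077 to 0.11). Dnmt3b and Lef1 lay just above the threshold (-0.52 and -0.89, adjusted p = 0.052 and 0.054). Genes of general pluripotency, such as Pou5f1 (-0.49, adjusted p = 0.091) and Sox2 (0.26), had 0 of 9 past the adjusted p and a median of -0.14. The extraembryonic ectoderm level differed between genotypes in set A, and its part in these lower values was not tested.

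The glycolytic enzymes Eno1, Pgam1 and Pkm were lower by a smaller fold. Of 17 tested, 16 had a negative change and 3 passed the adjusted p, with a median of -0.28 that was between -0.38 and -0.19 over the alternatives. Eno1, enolase, had 619.6, 652, 681 and 719.7 CPM in controls and 487, 499, 440.4 and 503 CPM in knockouts, without overlap (log2 fold change -0.47, SE 0.08, adjusted p = 0.020). Pgam1 and Pkm were lower by log2 changes of -0.41 and -0.36 (adjusted p = 0.037 and 0.042). In both, knockout 4 was above controls 1 to 3 but below control 4, so they differed within each set only. Eno1 lost its call without control 1, 2 or 3 or knockout 3 (adjusted p = 0.055 to 0.080), Pgam1 without each in turn but knockout 1 (0.054 to 0.12) and Pkm without each of set A in turn (0.062 to 0.13). The cluster of protocadherins had 13 of 13 positive changes with 0 past the adjusted p, and a median of 0.46, which was 0.12 without control 4, knockout 4 or both. The changes lay between 0.15 and 0.53. A read is counted for every transcript it overlaps, so these values may share reads and are not 13 independent measures. Among complexes that repress germline genes, 0 of 14 PRC1.6 and related genes passed the fold threshold (median -0.16), and Mga, the scaffold of PRC1.6, passed the adjusted p at a log2 change of -0.39 (SE 0.08, adjusted p = 0.045), a call lost without each of the 8 in turn (0.063 to 0.12). H3K9 demethylases (0 of 10, median -0.25) and DNA methylation enzymes (0 of 9, median -0.12) had no member past the adjusted p. The same held for the Nodal pathway (0 of 13, median 0.01), Hox genes (0 of 7, median 0.63), oxidative phosphorylation (0 of 78, median -0.04), replication-dependent histones (0 of 51, median -0.05), immediate early genes (0 of 16, median 0.44) and stress response genes (0 of 14, median -0.03).

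Promoters of the raised genes were poorer in CpG than those of tested genes at large. A promoter is here the window from 250 bases before to 50 after a RefSeq start (GRCm38.p6) within 1000 bases of the counted transcript's start, which 83 of the 112 raised, 9 of the 11 lowered and 9964 of all tested genes had. The ratio of observed to expected CpG was above 0.65 in 25.3% of the raised genes against 67.6% of all, between 0.35 and 0.65 in 43.4% against 21.2% and below it in 31.3% against 11.2%. Of the 3062 promoters of genes at or below the raised genes' median level, 44.7% were above 0.65, so the class also moved with level. On the X, 5.0% of raised genes (1 of 20) were above 0.65 against 48.0% of tested X-linked genes, and on autosomes 31.7% of raised genes were. Of the genes with a stretch printed above, the whole window of Asz1 has a ratio of 0.783, Magea8 has 0.5, Magea2 has 0.477 and Slc38a4 has 0.238. The share above 0.65 was 36.1% with DESeq2.

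The E-box CACGTG, searched on both strands, was found in 8.43% of raised promoters (7 genes), in 10.3% of all and in 7.9% of those at low level. Without the set term it was in 0.0% of the raised genes. The E2F6-type letters TCCCGC or their reverse complement GCGGGA were found in 19.3% of raised promoters (16 genes) against 37.3% of all and 32.0% at low level. Both motifs were in 3.61% against 4.02%. Rec114 was 1 of the genes with both, an E-box 19 bases before its start, in capitals above, and GCGGGA 26 bases after it. Of the 9 lowered genes with a window, 5 held CACGTG. A match of these letters is a description of the window only.

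Replicate 4 offered a look at the raised genes in a pair that a fit on set A did not use, with 1 epiblast a genotype and so no replicate check. Set A alone gave 188 raised genes, and 111 of them were higher in knockout 4 than in control 4, 52 were lower, and 71 were higher by over 1.4 on the log2 scale, with a median difference of 0.60 against -0.02 over the 13985 genes tested there. Of those 13985 genes, 6654 were higher in knockout 4, 7134 were lower and 828 were higher by over 1.4. X-linked and autosomal genes gave different values. Of 34 X-linked genes raised in set A, 27 were higher in knockout 4 and 3 were lower, with a median of 1.88, and of 154 autosomal ones 84 were higher and 49 lower, with a median of 0.20. Of the 16 genes lowered in set A, 14 were lower in knockout 4 (median -0.69). Knockout 4 carried Y-linked counts and knockouts 1 to 3 did not, so sex and set cannot be told apart among the knockouts.

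In the fit of all 8, knockouts 1 to 3 were above every control in 112 of the 112 raised genes and knockout 4 was in 89, among them 21 of the 25 X-linked ones. The 23 genes in which knockout 4 was at or below a control included Elf5, Tfap2c, Sox21, Gjb5, Grhl3, Klf5, Krt19, Igf2, Sfmbt2 and Morc4, of which Elf5, Tfap2c and Sox21 are on the extraembryonic ectoderm list. 3830417A13Rik, X-linked, had 98.2, 53 and 54.4 CPM in knockouts 1 to 3 and 0 CPM in knockout 4, against 0 to 0.79 CPM in controls. The promoter class differed in number between these groups, with 9 of 18 windows above 0.65 in the 23 genes and 12 of 65 windows in the 89. Knockout 4 was the lowest knockout in 73 of the 112 and knockout 1 was the highest in 64. An interaction of set and genotype, added after seeing the data, passed the adjusted p for 31 of all 13753 genes (0.225%). Set B has 1 epiblast a genotype, and for the raised and lowered genes, which were chosen by the fit without that term, it is no test of a difference between the sets.

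**Figure D5:**
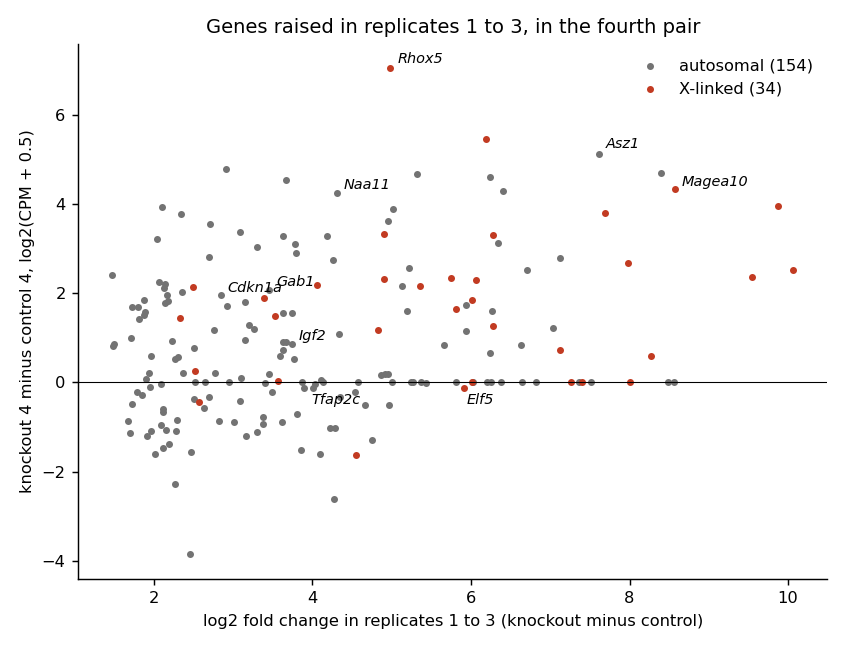
For each of the 188 genes raised in set A alone, the log2 fold change in set A (x axis) against the difference between knockout 4 and control 4 in log2(CPM + 0.5) (y axis), X-linked and autosomal genes in different colours. Of the 34 X-linked genes 27 lie above 0 on the y axis, and among the autosomal genes 84 of 154 do. Over all 13985 genes tested in set A, 6654 were higher in knockout 4.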

How the data were processed

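Total RNA of single E6.25 epiblasts was amplified from 750 pg with the Ovation RNA-seq System V2 and sequenced. The authors trimmed reads to 40 nt, aligned them with TopHat2 and Bowtie to GRCm38/mm10 and deposited raw HTSeq counts per Ensembl 74 transcript, in which a read is counted for every transcript it overlaps. Versions of these tools, the strand setting and the treatment of reads with several alignments are not given in the sources used here, so reads of overlapping, antisense and near-identical genes cannot be told apart. The replicate 4 files held a row that names no transcript, with 12.6% (control 4) and 13.3% (knockout 4) of the file's total, and it was left out.

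A transcript missing from a file was set to 0. Of 70534 transcripts, 68133 (96.6%) matched GENCODE vM21 (GRCm38), and each of 21251 genes is represented by the transcript with the highest mean count. After edgeR's filterByExpr by genotype 13753 genes were tested and 7498 were not, so a gene could be tested through 1 genotype alone. Counts were normalised by TMM and fitted with edgeR 4.0.16 (R 4.3.3; quasi-likelihood test, set plus genotype) on all 8 epiblasts, with Benjamini-Hochberg adjustment over all tested genes. Raised or lowered means an adjusted p under 0.05 and a log2 fold change beyond 1.4. A named gene lost its call under an alternative where its adjusted p was 0.05 or more, at any fold change. DESeq2 1.42.0, other filters, no set term, a replicate block, set A alone and leaving out each epiblast were alternatives, and the fit on 5 epiblasts without Y-linked counts and the interaction were added after seeing the data. Of these, set A alone and the fits without control 4 or knockout 4 are in effect 1 comparison. The script was checked on simulated counts. Where a genotype held at most 3 counts, a ratio of pooled CPM with an exact counting interval, or a bound with 3 counts as the floor, replaces the fitted fold; these and other intervals cover counting error only, and amplified reads are not independent molecules. Promoters came from RefSeq (GRCm38.p6), found by symbol for 10490 tested genes.

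The named genes are Ehmt2, the 20 raised and 10 lowered genes of largest change among those with every knockout on 1 side of every control and at least 1 CPM in the higher genotype, up to 6 called members of each of 44 gene lists, and for lists without a call up to 3 of smallest p. Other genes in the text were picked after their values were seen. The comparison, the lists and the tests were chosen with earlier results of these data known.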

Additional observations from a re-analysis of the deposited data

Results flagged for a closer look

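Within a genotype 1 epiblast lay far from the other 3 in 18 of 182 groups of 4 values (9.89%), by the ratio of its gap to the whole range on the log2 scale, beyond the 95% limit of Dixon's test, which chance alone passes in about 1 group in 20. The ratio was 1.0, with the other 3 at 0 counts, for Magea4 in control 3, Magea10 and Mageb4 in control 2, Xlr5c in control 3, Xlr4c in control 1, Gm14569 in control 4, Timm8a2 in control 1, 1700019E08Rik in control 3, Ano3 in control 2, Casp14 in control 3 and Col4a6 in knockout 2. Each of these rests on 1 to 3 counts.

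Among genes with more counts, Magea8 was at 6.44 CPM in knockout 4 against 20.3 to 23.5 CPM in the other knockouts (ratio 0.885), and 3830417A13Rik was at 0 CPM in knockout 4 against 53 to 98.2 CPM (0.884). Id2 was at 115 CPM in knockout 1 against 23.8 to 24.6 CPM (0.98), and Wdfy4 at 5.00 CPM in knockout 3 against 1.16 to 1.43 CPM (0.876). In controls, replicate 4 stood apart for Gtsf1 (1.96 CPM against 0.106 to 0.243 CPM, 0.855), Ei24 (43.8 CPM against 56.9 to 59.4 CPM, 0.857) and Pkm (2276 CPM against 1420 to 1525 CPM, 0.85).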

How the results depend on the processing

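Genes raised numbered 225 with DESeq2, 218 without the filter on low counts, 28 without the set term, 69 with the replicate block, 188 in set A alone and 70 in the 5 epiblasts without Y-linked counts, against 112, and 49 to 185 when 1 epiblast was left out. Genes lowered numbered 62, 28, 0 and 1 under the first 4 of these and 4 in the 5 epiblasts, against 11, and 2 to 16 with 1 epiblast left out. At any fold change 376, 282, 28, 75, 217 and 76 genes were higher (54 to 212 with 1 left out), and under the same alternatives without set A alone 259, 124, 0, 5 and 7 were lower (6 to 67 with 1 left out). A single epiblast left in set B is fitted by the set term alone. The fits without control 4, without knockout 4 and on set A alone thus compare the genotypes within set A and are not separate checks. The X-linked share of raised genes was 32.1% without the set term, 16.4% with DESeq2, 18.1% in set A alone and 19.7% without the filter, CpG-rich promoters made up 36.1% with DESeq2, and CACGTG was in 0.0% without the set term. Ehmt2 missed the adjusted p without the set term (log2 fold change -1.69) and in the 5 epiblasts (-1.65). DESeq2's size factors in edgeR gave 112 and 11. No named gene past the adjusted p turned direction under an alternative, but medians of lists did, among them primitive streak (-1.69 to 0.73), visceral endoderm (-1.10 to 0.50), maternal blood and decidua (-0.31 to 0.80), lymphocyte (-0.13 to 1.69) and 2-cell genes (-0.05 to 1.66). Of 1387 values of the 83 named genes past the adjusted p, 424 missed it under an alternative. The cause of these differences was not tested.

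The replicate numbers are shared by the genotypes, but the deviations of same-numbered epiblasts from their means correlated by 0.0522, 0.105, 0.192 and 0.396, not all over 0.1, so the numbers were not taken to pair the samples. With the replicate block 69 genes were raised, 66 of them among the 112, and 1 was lowered. Depth limits the low genes: the median SE of the log2 fold change was 0.75 in the lowest of 5 level groups and 0.12 in the highest, and 7498 genes were too low to test.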
